A study of Mus musculus with 6 samples.

Results

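Chemokine ligands are small secreted proteins that direct the movement of leukocytes through receptors on the cell surface. The 8 ligand genes described here are Cxcl1, Cxcl2, Cxcl9, Ccl3, Ccl4, Ccl5, Ccl8 and Ccl9, taken by gene symbol from an expression table of 8468 mouse genes, and all 8 were found in it. They were read in RNA of CD3+ T cells isolated from the spleen of mice given a haematopoietic stem cell transplant (HSCT), that is, new blood-forming cells. In the allo-HSCT group, Balb/c hosts had received cells of C57BL/6 donors, a mismatch in transplantation antigens that is the setting of acute graft-versus-host disease. In the syn-HSCT group, Balb/c hosts had received cells of Balb/c donors. Each group had 3 libraries. The sources used here do not give the age of the mice, their conditioning, the time since transplant or whether the isolated cells stemmed from donor or host. The labels do not state whether the libraries of a group are from different mice, and p-values therefore reflect the spread between samples alone, which may be technical. Donor strain and type of transplant changed together in every sample and cannot be told apart.

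Chemokines are named for the spacing of their first cysteines. CXC ligands that carry the residues Glu-Leu-Arg ahead of that motif, Cxcl1 and Cxcl2 among them, act on CXCR2 and draw neutrophils. Myeloid cells make them within hours of an inflammatory signal through the transcription factor NF-kB. Cxcl9 lacks those residues, is induced by interferon gamma, and draws activated T cells through CXCR3. The CC ligands Ccl3, Ccl4 and Ccl5 are released by effector T cells and NK cells as well as by myeloid cells. Ccl9 acts on CCR1 and is known from myeloid cells, and mouse Ccl8 acts on CCR8. In graft-versus-host disease such ligands are studied because they bring donor T cells into host organs.

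The table gives 1 value per gene and library in FPKM, a read count divided by gene length and by library total, so levels of different genes can be set side by side. Library totals recovered from the values were 16330845 to 17143498 reads in allo-HSCT and 15642385 to 17524496 in syn-HSCT. The deposited table holds almost no gene with a small change. Among 4815 genes with over 100 reads a library, no log2 ratio of allo-HSCT to syn-HSCT lay between -0.37 and 0.21, so any count of changed genes describes genes that already differ. Of 5460 genes tested with limma, 93.7% passed an adjusted p of 0.05. Those higher in allo-HSCT were 47.9% of the genes tested and those lower 45.8%, and the groups did not overlap in 91.0%. All 11 T cell markers listed, among them Cd3e and Cd4, were present and higher in allo-HSCT, most of all Cd8a (3.15-fold), Cd8b1 (2.90-fold) and Cd247 (2.10-fold), with summed levels of 2192 to 2313 FPKM in allo-HSCT and 1279 to 1376 FPKM in syn-HSCT. Markers of other cell types were present too. The 10 macrophage and monocyte markers in the table summed to 372 to 472 FPKM in allo-HSCT and 1765 to 2298 FPKM in syn-HSCT. The largest part of each sum was Lyz2, at 217 ± 44.5 FPKM in allo-HSCT and 1634 ± 254 FPKM in syn-HSCT. Each value is of a whole isolate, in which fewer cells of a type and less RNA per cell cannot be told apart.

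Both neutrophil-attracting ligands fell in allo-HSCT, and by more than any other member. Cxcl2 had 25.1, 22.5 and 23.1 FPKM in the 3 allo-HSCT libraries, against 308, 323 and 334 FPKM in the syn-HSCT libraries. All 3 allo-HSCT values lay close together and far under the lowest syn-HSCT value. The mean was 13.7-fold lower in allo-HSCT, at 23.5 ± 1.36 FPKM against 322 ± 13 FPKM (SD, n = 3 each; log2 fold change of -3.72 with an SE of 0.076, adjusted p = 1.65e-09 by limma). On the log2(FPKM + 1) scale it was the most negative value among the 5460 genes tested, though some genes with very low allo-HSCT levels fell by more in FPKM. Behind these values stood 1284 reads over the allo-HSCT libraries and 17283 over the syn-HSCT libraries.

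Cxcl1, which lies beside Cxcl2 in the genome and shares its receptor, had 2.42, 1.89 and 1.80 FPKM in allo-HSCT and 22.6, 26.0 and 27.4 FPKM in syn-HSCT. Again the groups did not overlap. It was 12.5-fold lower (log2 fold change of -3.12 with an SE of 0.103, adjusted p = 2.21e-08 by limma), on 98 reads over the allo-HSCT libraries and 1201 over the syn-HSCT libraries. The low allo-HSCT level makes the log2(FPKM + 1) scale understate this change, and with a pseudocount of 0.1 the log2 fold change was -3.58. The ratio of Cxcl2 to Cxcl1 was nearly the same throughout, at 11.7 ± 1.24 in allo-HSCT and 12.7 ± 0.764 in syn-HSCT, and its values overlapped between the groups. In transcripts of GENCODE M21 the longest exact run that Cxcl1 and Cxcl2 share is 23 bases, while Cxcl2 and the related ligand Cxcl3 share 157 bases, so reads could be split between those 2 genes.

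Ccl9, a CCR1 ligand of myeloid cells, fell with them. It had 5.74, 4.50 and 5.52 FPKM in allo-HSCT and 39.8, 41.3 and 41.1 FPKM in syn-HSCT. The syn-HSCT libraries differed from each other by little, with an SD of 0.812 FPKM. Ccl9 was 7.75-fold lower in allo-HSCT (log2 fold change of -2.74 with an SE of 0.0896, adjusted p = 2.21e-08 by limma).

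Ccl3 and Ccl4, which are made by activated T cells, NK cells and macrophages, also fell, by smaller amounts. Ccl3 had 121, 93.4 and 95.3 FPKM in allo-HSCT and 223, 243 and 255 FPKM in syn-HSCT. No allo-HSCT value reached the syn-HSCT range, and allo-HSCT replicate 1 stood above the other 2. Ccl3 was 2.33-fold lower (log2 fold change of -1.22 with an SE of 0.108, adjusted p = 6.22e-06 by limma). Ccl4 had 104, 75.5 and 81.6 FPKM in allo-HSCT and 129, 141 and 145 FPKM in syn-HSCT. Here the highest allo-HSCT library came nearest to the lowest syn-HSCT library of all members. Ccl4 was 1.59-fold lower (log2 fold change of -0.67 with an SE of 0.117, adjusted p = 5.16e-04 by limma), and without allo-HSCT replicate 1 its log2 fold change was -0.81. The ratio of Ccl3 to Ccl4 was tight within each group, at 1.19 ± 0.0439 in allo-HSCT and 1.74 ± 0.0175 in syn-HSCT (SD, n = 3 each), with no overlap. A predicted RefSeq transcript of Ccl4 runs across Ccl3 on the other strand, and the strand setting of the counting is not given. The length recovered for Ccl4, 660 bases, is that of its GENCODE M21 transcript, which lies clear of Ccl3.

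Ccl5, which memory and effector CD8 T cells keep as stored message, rose and was the most abundant of the 8 in both groups. It had 544, 630.0 and 620.4 FPKM in allo-HSCT and 352, 343 and 343 FPKM in syn-HSCT. The syn-HSCT libraries were nearly equal, and allo-HSCT replicate 1 was the lowest of its group, the reverse of its place for Ccl3 and Ccl4. Ccl5 was 1.73-fold higher (log2 fold change of 0.78 with an SE of 0.0863, adjusted p = 2.75e-05 by limma), on 16026 reads over the allo-HSCT libraries and 9140 over the syn-HSCT libraries.

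Cxcl9, the interferon gamma-induced ligand of CXCR3, rose as well. Its values were 11, 8.71 and 7.78 FPKM in allo-HSCT and 2.78, 2.55 and 1.80 FPKM in syn-HSCT. The lowest allo-HSCT library stood well above the highest syn-HSCT library. Cxcl9 was 3.85-fold higher (log2 fold change of 1.59 with an SE of 0.139, adjusted p = 5.70e-06 by limma), from 1342 reads in allo-HSCT and 345 reads in syn-HSCT. Without syn-HSCT replicate 3, its lowest library, the log2 fold change was 1.46.

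Ccl8, a CCR8 ligand known in mouse skin to draw Th2 cells, was the rarest member. It had 1.5, 1.03 and 1.20 FPKM in allo-HSCT, from 13, 9 and 10 reads, and was at 0 in all 3 syn-HSCT libraries. Set against a floor of 3 reads over the syn-HSCT group, it was at least 10.5-fold higher in allo-HSCT. Ccl8 passed the filter on low values only through its allo-HSCT libraries, so it had to differ, and its limma result (log2 fold change 1.16, adjusted p = 2.15e-06) adds nothing to that. Leaving out any 1 allo-HSCT library takes it below the filter. Of the other 7 members, 2 were higher and 5 lower at the adjusted p threshold, and the same 2 and 5 were called without any 1 library. With 93.7% of all tested genes called, the number of calls says nothing particular about the family, and the sizes and directions are what the values above describe.

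**Figure D1:**
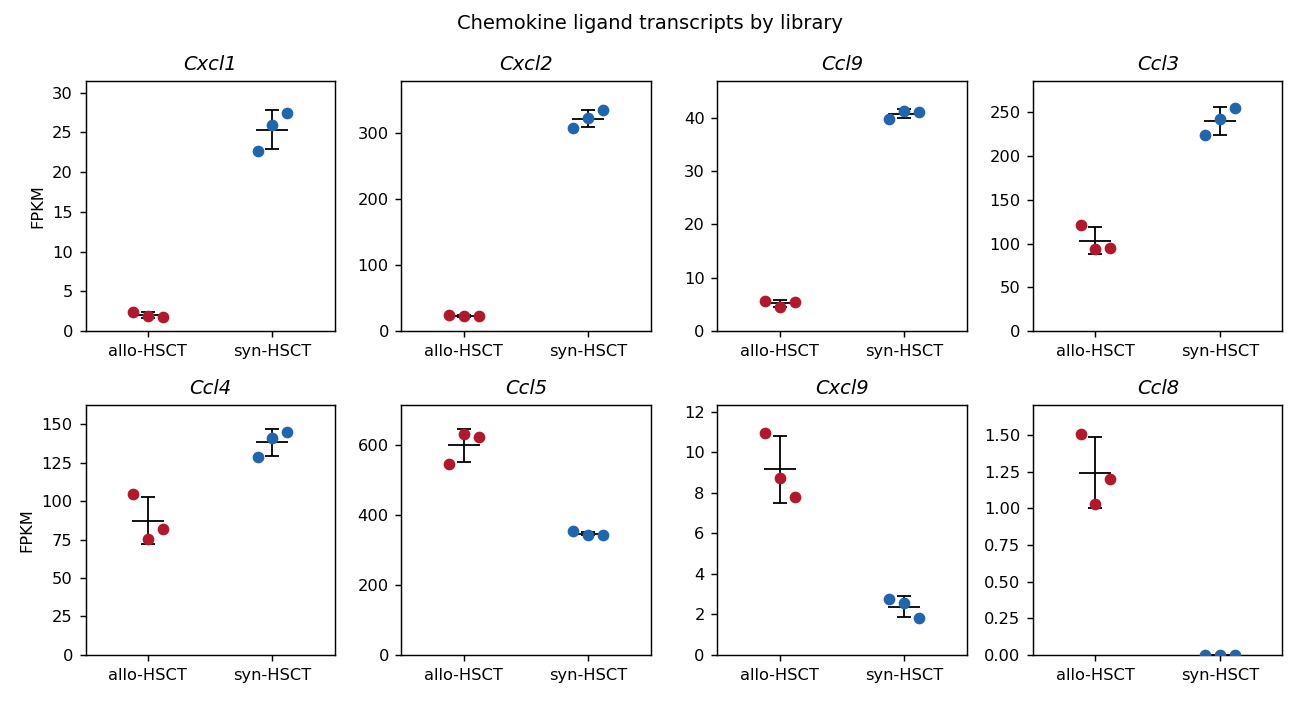
FPKM of each of the 8 ligands in the 3 allo-HSCT libraries (red, left) and the 3 syn-HSCT libraries (blue, right), with every axis starting at 0; horizontal bars are means and whiskers SD (n = 3). Cxcl1, Cxcl2, Ccl9, Ccl3 and Ccl4 were lower and Ccl5, Cxcl9 and Ccl8 higher in allo-HSCT, with Cxcl2 at 22.5 to 25.1 FPKM against 308 to 334 FPKM.

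The stretches just before the transcription starts of Cxcl1 and Cxcl2 are shown beside those of Ccl9, which fell with them, and Cxcl9, which rose. They were picked because each holds a match by letters to a loose pattern, given below, of sites through which NF-kB is known to act. Ccl3, which also fell, and Ccl8 held no such match in the 250 bases before the start and are not shown. RefSeq promoter entries (GRCm38.p6, the C57BL/6J reference) were found for 6 of the 8 members, Ccl4 and Ccl5 not among them. Each line gives the 130 bases ahead of the start, read 5′ to 3′ on the strand of the gene. Capitals mark matches to a loose NF-kB-like pattern, GGG and CC with 5 bases of any kind between, searched on both strands, where overlapping matches run together.
Cxcl1, chr5:90891115-90891244, plus strand: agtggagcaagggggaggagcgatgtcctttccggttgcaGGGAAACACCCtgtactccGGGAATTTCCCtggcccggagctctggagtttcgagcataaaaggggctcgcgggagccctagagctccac
Cxcl2, chr5:90903769-90903898, plus strand: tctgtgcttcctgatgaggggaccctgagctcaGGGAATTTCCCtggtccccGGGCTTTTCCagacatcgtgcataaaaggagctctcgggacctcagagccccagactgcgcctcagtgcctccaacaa
Ccl9, chr11:83578637-83578766, minus strand: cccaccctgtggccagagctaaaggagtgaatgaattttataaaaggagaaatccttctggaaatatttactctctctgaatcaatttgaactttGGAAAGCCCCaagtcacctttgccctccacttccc
Cxcl9, chr5:92328080-92328209, minus strand: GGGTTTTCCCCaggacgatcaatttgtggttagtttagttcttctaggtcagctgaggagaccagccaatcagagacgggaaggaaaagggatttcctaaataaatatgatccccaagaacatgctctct

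Cxcl1 and Cxcl2 hold the same run of 14 letters, GGGAATTTCCCTGG, which begins 71 bases before the start in Cxcl1 and 97 bases before it in Cxcl2. That was the longest run shared by any 2 of the 6 windows. A stricter pattern, GGG and TTTCC with 2 bases of any kind between, each match of which is also a loose one, occurred 2 times in Cxcl1, 2 times in Cxcl2 and 1 time in Ccl9. It was not found in the 250 bases before the starts of Cxcl9, Ccl3 and Ccl8. Of 32851 mouse promoter windows of 250 bases, 1.41% held the strict pattern and 45.8% the loose one. TTCNNNGAA, an interferon gamma-activated site by its letters, and a pair of GAAA with 2 bases of any kind between, an interferon-stimulated element by its letters, were in none of the 6 windows, against 7.02% and 2.98% of all windows. Such matches describe letters only, and the Balb/c sequence was not read here.

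The make-up of the ligand message differed between the groups. Summed over the 8 genes, FPKM was 815, 838 and 837 in allo-HSCT and 1078, 1120 and 1147 in syn-HSCT. Ccl5 made up 72.0% ± 4.62 of that sum in allo-HSCT and 31.1% ± 1.44 in syn-HSCT (SD, n = 3 each). Cxcl2 made up 2.84% ± 0.210 in allo-HSCT and 28.9% ± 0.260 in syn-HSCT. The share of Ccl3 was 12.5% ± 2.06 in allo-HSCT and 21.5% ± 0.738 in syn-HSCT, and that of Ccl4 was 10.5% ± 2.02 and 12.4% ± 0.399, where allo-HSCT replicate 1 (12.8%) lay above all 3 syn-HSCT libraries. Cxcl9 was a small part, at 1.11% ± 0.216 in allo-HSCT and 0.214% ± 0.0518 in syn-HSCT.

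**Figure D2:**
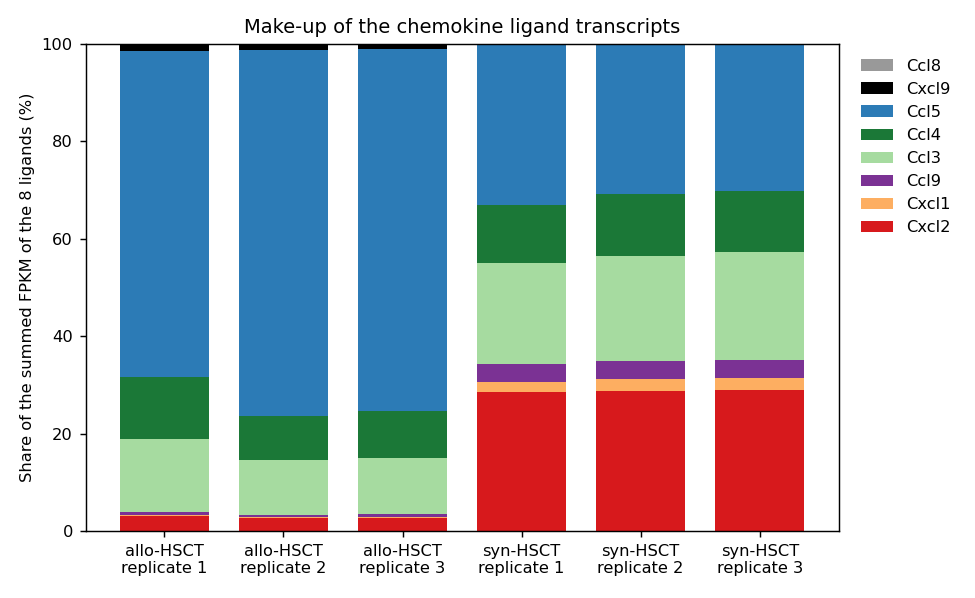
Share of each ligand in the summed FPKM of the 8 ligands (vertical axis, percent), 1 stacked bar per library, allo-HSCT on the left and syn-HSCT on the right. Ccl5 fills 66.7% to 75.2% of the allo-HSCT bars and 29.9% to 32.7% of the syn-HSCT bars, and Cxcl2 2.68% to 3.08% against 28.6% to 29.1%.

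The order of levels changed accordingly. In allo-HSCT it ran Ccl5, Ccl3, Ccl4, Cxcl2, Cxcl9, Ccl9, Cxcl1 and Ccl8 by mean FPKM. Ccl3 and Ccl4 overlapped there over libraries, although Ccl3 was the higher in each of the 3, and no other neighbours in that order overlapped. In syn-HSCT it ran Ccl5, Cxcl2, Ccl3, Ccl4, Ccl9, Cxcl1, Cxcl9 and Ccl8, with no overlap between neighbours. Cxcl2 thus stood in the second place in syn-HSCT and in the fourth place in allo-HSCT.

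Set directly against each other, Cxcl2 and the T cell-attracting ligands Cxcl9 and Ccl5 stood in other proportions in the groups. The ratio of Cxcl2 to Cxcl9 was 2.28, 2.58 and 2.97 in allo-HSCT and 111, 127 and 185 in syn-HSCT, 54.0-fold lower in allo-HSCT by the means. The ratio of Cxcl2 to Ccl5 was 0.0396 ± 0.00565 in allo-HSCT and 0.930 ± 0.0503 in syn-HSCT. Within the T cell-attracting ligands the members did not move as one, since Cxcl9 and Ccl5 rose and Ccl3 and Ccl4 fell. The mean log2 level of Cxcl1 and Cxcl2 minus that of Cxcl9, Ccl3, Ccl4 and Ccl5 was -3.34, -3.31 and -3.31 in allo-HSCT and 0.11, 0.21 and 0.33 in syn-HSCT. The difference of -3.54 became -4.60 with Ccl3 and Ccl4 left out. As the members were chosen with earlier results known, no p was computed for these ratios.

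The table also holds 15 of the 29 other mouse chemokine ligand genes listed, of which 9 were high enough to test. Of those, Ccl17 passed the filter only through its allo-HSCT libraries and Cxcl3 only through its syn-HSCT libraries, so both had to differ. Of the other 7, 3 rose and 4 fell, where 47.9% of all tested genes were higher and 45.8% lower. Among the 4 that fell was Ccl2, the CCR2 ligand that draws monocytes. Ccl2 had 2.71, 2.61 and 2.43 FPKM in allo-HSCT and 17.7, 17.6 and 14.0 FPKM in syn-HSCT. It was 6.37-fold lower (log2 fold change -2.28, limma adjusted p = 6.63e-08). Cxcl3, also a neutrophil-attracting CXCR2 ligand, had 0.0581, 0.0573 and 0.241 FPKM in allo-HSCT and 1.43, 1.07 and 1.19 FPKM in syn-HSCT on only 6 and 62 reads. Smaller falls were those of Ccl6 (1.55-fold), a CCR1 ligand of myeloid cells, of Xcl1 (1.56-fold), the ligand of XCR1 on cross-presenting dendritic cells, and of Pf4 (1.66-fold), a platelet CXC ligand.

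Higher in allo-HSCT were Ccl22, Ccl17, Ccl1 and Cxcl16, whose receptors are all found on activated T cells. Ccl22, a CCR4 ligand of dendritic cells and activated lymphocytes, had 9.27, 9.24 and 9.06 FPKM in allo-HSCT and 1.68, 1.99 and 1.77 FPKM in syn-HSCT, 5.08-fold higher (log2 fold change 1.86, limma adjusted p = 4.82e-08). Ccl17, the other CCR4 ligand, stood at 1.78 ± 0.613 FPKM in allo-HSCT and 0.163 ± 0.0659 FPKM in syn-HSCT, where it rested on 12 reads. Ccl1, a CCR8 ligand of activated T cells, was 4.53-fold higher (log2 fold change 1.52, limma adjusted p = 2.70e-05), with allo-HSCT replicate 1 at 7.49 FPKM and the other 2 allo-HSCT libraries at 4.39 and 4.37 FPKM. Cxcl16, the CXCR6 ligand, was 1.40-fold higher. The remaining 6, Ccl21a, Ccl27a, Ccl28, Cxcl12, Cxcl13 and Cx3cl1, stayed under the filter, and of these only Ccl27a was at 0 in all syn-HSCT libraries, with 0.450, 0.355 and 0.373 FPKM in allo-HSCT. Ccl21a and Ccl27a belong to groups of near-identical gene copies, among which reads can be split.

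The order of these genes along the chromosomes, taken from RefSeq, shows which ligands moved with their neighbours. Cxcl1 and Cxcl2 lie side by side on chromosome 5 in a cluster with Pf4 and Cxcl3, and all 4 were lower in allo-HSCT. Cxcl3 had to be, since it passed the filter only through syn-HSCT. Cxcl5, Ppbp and Cxcl15 of the same cluster were not in the table. Cxcl9, which rose, is on the same chromosome, 16 protein-coding genes further on. On chromosome 11, Ccl5, Ccl9, Ccl6, Ccl3 and Ccl4 follow each other with no other protein-coding gene between them. Ccl5 rose there while the next gene, Ccl9, fell 7.75-fold, and Ccl6, Ccl3 and Ccl4 fell less. A separate cluster on chromosome 11 begins with Ccl2, which fell, and ends with Ccl8 and Ccl1, which were higher. For Ccl8 that direction was fixed by the filter, as said above.

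**Figure D3:**
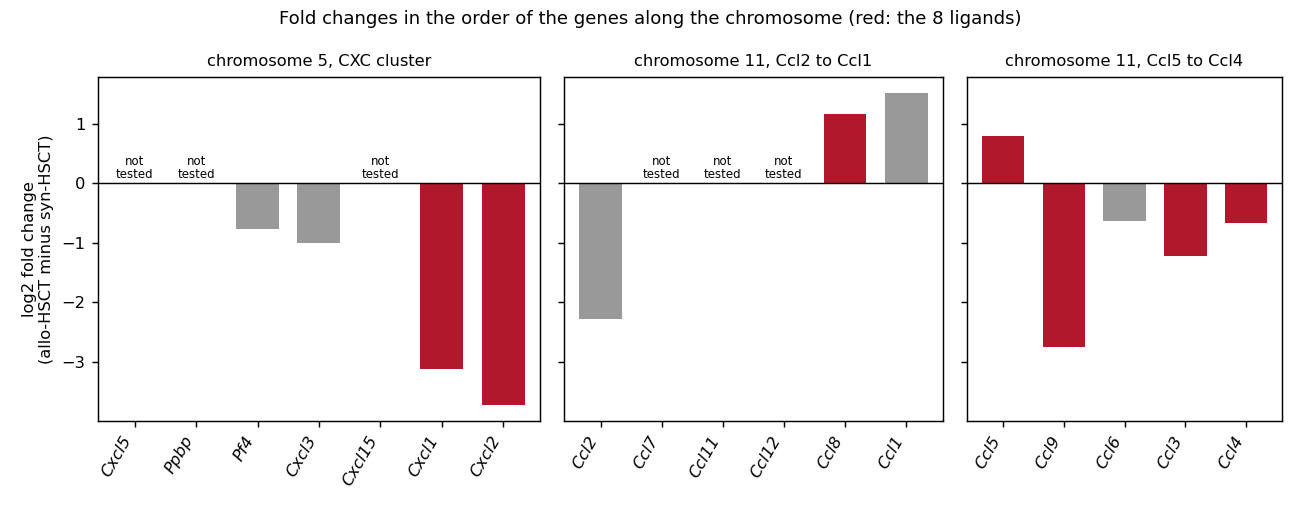
Log2 fold change (allo-HSCT minus syn-HSCT, on log2(FPKM + 1), vertical axis) of chemokine ligand genes in 3 clusters, drawn in the order of the genes with no scale of distance; red bars are the 8 ligands and grey bars other ligands. Ccl5 at 0.78 stands next to Ccl9 at -2.74, while Pf4, Cxcl3, Cxcl1 and Cxcl2 all lie below 0. Cxcl3 passed the filter only through syn-HSCT, so its bar had to lie below 0. The bar of Ccl8 rests on 0 reads in syn-HSCT.

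Of the receptors listed for these ligands, 8 of 9 were in the table and 6 could be tested, with 2 higher and 4 lower. Over all tested genes, 47.9% were higher and 45.8% lower. Cxcr3, the receptor of Cxcl9 on activated T cells, had 55.8, 65.0 and 68.4 FPKM in allo-HSCT and 21.7, 22.6 and 21.9 FPKM in syn-HSCT. It rose 2.86-fold (log2 fold change of 1.47 with an SE of 0.0868, adjusted p = 4.46e-07 by limma), so ligand and receptor were both higher in allo-HSCT. Cxcr2, the neutrophil receptor of Cxcl1 and Cxcl2, was low in both groups and 1.41-fold higher in allo-HSCT, at 1.74 ± 0.0787 FPKM against 1.23 ± 0.225 FPKM (limma adjusted p = 0.00946), the opposite direction to its ligands. Ccr1 (1.40-fold), a receptor of Ccl3, Ccl5 and Ccl9, and Ccr3 (1.75-fold), the eosinophil receptor that also binds Ccl5, were lower. Ccr8, the receptor of mouse Ccl8 and Ccl1, was 1.53-fold lower while both ligands were higher. The receptor-like gene Ccrl2 fell most, 3.51-fold, to 15.8 ± 2.20 FPKM in allo-HSCT against 55.6 ± 2.27 FPKM in syn-HSCT. Cxcr1 and the scavenging receptor Ackr2 stayed below 1 FPKM in every library and were not tested.

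**Figure D4:**
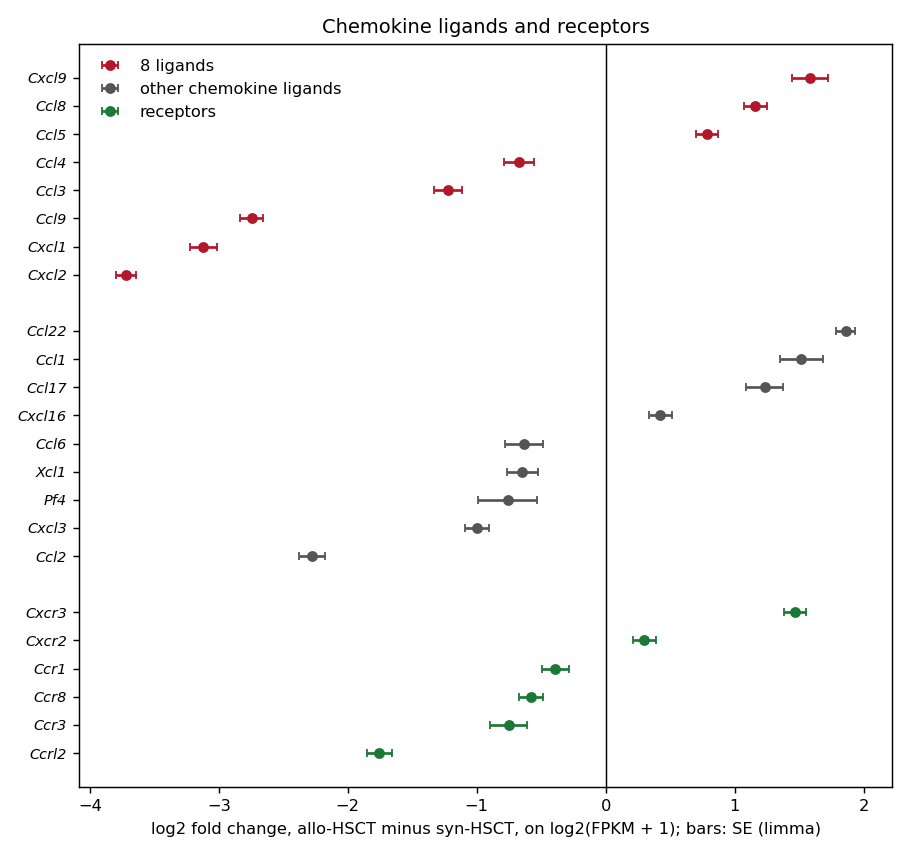
Log2 fold change on log2(FPKM + 1) with its standard error (horizontal axis, limma, n = 3 libraries a group) for the 8 ligands (red), the 9 other chemokine ligands tested (grey) and the 6 receptors tested (green). The ligands reach from -3.72 for Cxcl2 to 1.86 for Ccl22, and the receptors from -1.76 for Ccrl2 to 1.47 for Cxcr3. Ccl8 and Ccl17 passed the filter only through allo-HSCT and Cxcl3 only through syn-HSCT, so the directions of these points were fixed.

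Genes of the pathways that are known to induce these ligands were counted as well. The background for this and each later list is all tested genes, of which 47.9% were higher and 45.8% lower. In the NF-kB list, 10 of 18 genes were in the table, of which 8 were lower, 1 higher (Traf1, an adaptor of TNF receptors, 1.58-fold) and 1 not called. The largest falls were those of Ptgs2, the inducible cyclooxygenase (4.92-fold), Tnf (3.27-fold) and Il6 (3.15-fold). Il1b was 2.12-fold lower, at 9.89 ± 2.89 FPKM in allo-HSCT and 21.0 ± 1.70 FPKM in syn-HSCT. Tnfaip3, an NF-kB inhibitor, had a log2 fold change of 0.21 (limma adjusted p = 0.0586), which passed the threshold in 7 alternatives, among them the one without allo-HSCT replicate 1 (adjusted p = 2.10e-04). Over all alternatives its limma adjusted p ranged from 6.77e-05 to 0.197. Cxcl2 fell more than Tnf, and their ratio was 0.802 ± 0.0152 in allo-HSCT and 3.35 ± 0.132 in syn-HSCT.

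In the interferon gamma list, 22 of 25 genes were in the table, and of the 21 tested 19 were higher and 2 lower. The shares over all tested genes were 47.9% and 45.8%. Ifng itself, the cytokine that induces Cxcl9, had 95.5, 77.0 and 78.1 FPKM in allo-HSCT and 29.9, 31.2 and 33.5 FPKM in syn-HSCT, 2.65-fold higher (log2 fold change 1.37). Gbp6 and Gbp2, guanylate-binding proteins induced by this cytokine, were 2.20-fold and 2.09-fold higher. Irf8, a factor of myeloid cells that also acts on interferon gamma targets, was 1.99-fold lower and the receptor chain Ifngr2 1.5-fold lower. The ratio of Cxcl9 to Ifng was 0.109 ± 0.00842 in allo-HSCT and 0.0763 ± 0.0202 in syn-HSCT. Gbp3 and Socs1 were called higher with all libraries, but not without syn-HSCT replicate 1 or 3 for Gbp3 (adjusted p = 0.0722 and 0.0592), nor without allo-HSCT replicate 2 or 3 or syn-HSCT replicate 2 for Socs1 (adjusted p = 0.0746, 0.0777 and 0.0759). Over all alternatives the limma adjusted p ranged from 0.00747 to 0.0722 for Gbp3 and from 3.01e-06 to 0.0777 for Socs1.

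Effector cells secrete Ccl3, Ccl4 and Ccl5 along with their cytotoxic granules, and all 8 of the 10 granule genes found in the table were higher. Their median log2 fold change was 0.96, against 0.20 over all tested genes, of which 47.9% were higher. Gzmb, Prf1 and Serpinb9, which encode granzyme B, perforin and an inhibitor of granzyme B, were 7.77-fold, 4.52-fold and 3.80-fold higher. Ccl5 rose less than these and about as much as Nkg7, a membrane protein of cytotoxic granules, and the ratio of Ccl5 to Nkg7 overlapped between the groups (1.78 ± 0.258 in allo-HSCT and 1.98 ± 0.0714 in syn-HSCT). Ccl3 and Ccl4 moved the other way from this list. Of regulators known to act on member transcripts, 4 of 6 were in the table and all 4 rose. Klf13, which drives late Ccl5 transcription in T cells, was 1.52-fold higher. Traf3ip2, the adaptor through which interleukin-17 stabilises Cxcl1 message, was 1.77-fold higher. The messages of Zfp36l2 and Zfp36l1, whose proteins promote decay of AU-rich transcripts, were 1.33-fold and 1.27-fold higher, while their relative Zfp36, counted in the NF-kB list, was 2.11-fold lower.

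Markers of cells that make these ligands moved with the groups. Among 10 macrophage and monocyte markers in the table, of 15 listed, 9 were lower. Vcan was higher, but it reached 1 FPKM only in the allo-HSCT libraries and passed the filter through them alone. F13a1, Cd14 and Lyz2 were 10.4-fold, 8.55-fold and 7.51-fold lower, whereas Csf1r and Cd68, which define macrophages broadly, were 1.32-fold lower or less. All 5 granulocyte precursor markers were lower, with sums of 266 to 304 FPKM in allo-HSCT and 1317 to 1345 FPKM in syn-HSCT, Prtn3, Mpo and Ctsg falling most. Of 8 neutrophil markers in the table, 6 were higher, among them Mmp9 (2.43-fold) and Lcn2 (2.35-fold), and Csf3r (3.53-fold) and Ly6g (2.38-fold) were lower. Their sums were 619.6 to 728 FPKM in allo-HSCT and 400.1 to 405 FPKM in syn-HSCT. Most of each sum was Ngp, at 385 ± 32.0 FPKM in allo-HSCT and 234 ± 2.53 FPKM in syn-HSCT. The neutrophil list also holds Cxcr2. Of 6 NK cell markers 5 were lower, among them Ncr1 (3.58-fold), Tyrobp (3.44-fold) and Klre1 (2.83-fold), and Klrb1c was higher. The NK cell markers summed to 203 to 283 FPKM in allo-HSCT and 623 to 668 FPKM in syn-HSCT. Tyrobp alone made up most of each sum, at 132 ± 28.4 FPKM in allo-HSCT and 456 ± 32.5 FPKM in syn-HSCT. No marker in the table was at 0 in a whole group, and the part of these cells in the ligand differences was not tested.

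Of 8 dendritic cell markers tested, Siglech and Cd209a passed the filter only through syn-HSCT and Xcr1 only through allo-HSCT, so these 3 had to differ. Of the other 5, Clec10a (7.82-fold), Flt3 (2.97-fold) and Bst2 (1.80-fold) were lower and Batf3 (1.42-fold) was higher. Clec9a was not called (log2 fold change 0.17, limma adjusted p = 0.157), and over the alternatives its adjusted p ranged from 0.0344, with quantile normalization, to 0.570. Sums were 70.8 to 75.5 FPKM in allo-HSCT and 134 to 146 FPKM in syn-HSCT. Most of each sum was Bst2, at 56.0 ± 1.24 FPKM in allo-HSCT and 100 ± 5.75 FPKM in syn-HSCT. Of B cell markers, both tested, Cd22 and Cd79a, were higher. Platelet markers Pf4, Treml1 and Itga2b were all lower, as were Pdgfrb and Stab2 of stroma and endothelium, Pdgfrb passing the filter only through syn-HSCT. Of 5 mast cell and basophil markers 3 were lower, with Kit (2.95-fold) and Gata2 (2.11-fold) falling most, Fcer1a was 2.53-fold higher and Cpa3 was not called (adjusted p = 0.129 by limma). Cpa3 was called without allo-HSCT replicate 2 (adjusted p = 0.0469 by limma), and its adjusted p ranged from 0.0448 to 0.838 over the alternatives. Ms4a2, among the 3 lower, was not called without allo-HSCT replicate 2 or syn-HSCT replicate 1 or 2, and its limma adjusted p ranged from 3.17e-05 to 0.0582. Among 5 erythroid markers 4 were higher, led by Slc4a1 (3.97-fold) and Alas2 (2.30-fold), and Klf1 was 2.70-fold lower.

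The ligands were also read per unit of marker message, a description added after the values were seen. Cd14 itself was 8.55-fold lower in allo-HSCT, so dividing by it had to shrink falls as large as those of Cxcl1 and Cxcl2. Per Cd14, Cxcl2 was 2.70 ± 0.157 in allo-HSCT and 4.30 ± 0.298 in syn-HSCT. The 13.7-fold difference in FPKM thus became a 1.59-fold difference. Cxcl1 per Cd14 differed 1.47-fold in the same direction. Ccl9 per Cd14 overlapped between the groups, at 0.602 ± 0.0701 in allo-HSCT and 0.544 ± 0.0257 in syn-HSCT, and so did Ccl9 per Lyz2. The choice of marker mattered, because Cxcl2 per Csf1r was still 10.5-fold lower in allo-HSCT and Ccl9 per Csf1r 5.94-fold lower. Ccl3 and Ccl4 went the other way per Cd14, 3.66-fold and 5.36-fold higher in allo-HSCT, and per Cd3e they were 4.21-fold and 2.86-fold lower. Per Ncr1, Ccl3 and Ccl4 were 1.55-fold and 2.27-fold higher.

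The ratio of Ccl5 to Cd3e was 3.44, 3.25 and 3.21 in allo-HSCT and 3.61, 3.47 and 3.47 in syn-HSCT. Those values did not overlap, yet the means differed by a factor of only 1.07, against 1.73 for Ccl5 alone. Per Cd8a, which rose 3.15-fold, Ccl5 was 1.82-fold lower in allo-HSCT. Cxcl9 per Csf1r was 5.08-fold higher.

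Genes whose values of log2(FPKM + 1), centred on their own means, lay closest to those of each member over the 6 libraries were sought among 3491 genes averaging at least 5 FPKM. Nearest to Cxcl1 was Cd14, at a root-mean-square distance of 0.13, then Tlr2 at 0.18. In FPKM, however, Cxcl1 fell 12.5-fold and Cd14 8.55-fold. Cxcl1 averaged only 2.03 FPKM in allo-HSCT, where the scale compresses differences. For Ccl9 the nearest genes were Adgrl4 at 0.08 and Tlr2 at 0.09. Adgrl4 averaged 0.725 FPKM in allo-HSCT and 10.2 FPKM in syn-HSCT. Its FPKM fell further than that of Ccl9, and the scale compresses differences at so low a level. For Cxcl2 they were Dntt at 0.18 and Rnase2a at 0.26, but both averaged under 1 FPKM in allo-HSCT, where the scale compresses differences, and their FPKM fell further than that of Cxcl2. Ccl8, at 0 in syn-HSCT, has a pattern set by the pseudocount, and no genes are given for it. Cxcl9 was closest to Cd160 (0.08) and Slamf7 (0.11), and Ccl5 to Il2rb (0.02) and Agpat3 (0.02). Nuak2 (0.03) and Tmem176b (0.04) were nearest to Ccl3, and Rheb and Rab9 (0.04 each) to Ccl4. The difference between the groups makes up most of each pattern, and with 3 libraries a group many genes can share one.

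Within allo-HSCT, replicate 1 stood apart for most members. It was above the mean of replicates 2 and 3 by a factor of 1.33 for Ccl4 and Cxcl9, 1.31 for Cxcl1, 1.28 for Ccl3 and 1.10 for Cxcl2, and it was at 0.869 times that mean for Ccl5. Its granule genes lay above those of the other 2 libraries by a median of 0.33 on the log2 scale and its NK cell markers by 0.40. Mast cell and basophil markers (0.49) and other chemokine ligands (0.43) lay further above. Ligand regulators (-0.36), B cell markers (-0.14) and erythroid markers (-0.08) lay below. The squared read difference over counting error averaged 21.2 and 16.4 per gene between replicate 1 and replicates 2 and 3. Between replicates 2 and 3 it was 2.53. Without it, the log2 fold changes were -3.76 for Cxcl2, -3.21 for Cxcl1, -2.80 for Ccl9, -1.34 for Ccl3, 0.85 for Ccl5 and 1.46 for Cxcl9.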

How the data were processed

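RNA of splenic CD3+ T cells was sequenced in 6 libraries, 3 a group. Per the labels' protocols, a STEMCELL kit enriched the T cells, and rRNA removal and library construction used NEB kits. Among tools the submitters' processing notes list only limma; the sources used here give no aligner, counter, build or strand setting. The table holds 1 value per gene and library, in no named unit. Multiplied by gene length and a whole-number library total, the deposited values of 8444 of 8468 genes (99.7%) came within 0.002 of whole reads in all 6 libraries, members included, so they are treated as FPKM computed by the authors. Totals were found from annotated transcript lengths (GENCODE M21). A recovered length can be too short by a common factor, which would lower read counts but not FPKM.

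The main test was limma 3.58.1 (R 4.3.3) with its trend option, fitted without covariates to log2(FPKM + 1) of all 6 libraries. It took genes reaching 1 FPKM in 3 libraries, and p-values were Benjamini-Hochberg adjusted over all 5460 tested genes. The test was checked on simulated counts. Printed folds are ratios of mean FPKM. Exact permutation of 3 against 3 libraries cannot go below p = 0.1 and was not used. Floors cover counting error only. Members and lists were chosen with earlier results of these data known. Named genes are all members, all measured other ligands, receptors and regulators, and from each other list the 3 largest called changes and those against the majority, and the 2 genes nearest in pattern to each member. Cd3e, Cd4, Cd68, Csf1r, Il1b, Nkg7, Zfp36, Gbp3, Socs1, Mmp9, Ngp, Flt3, Bst2 and Ms4a2, outside that rule, were chosen after their values were seen. Alternatives changed the pseudocount, filter, scaling, weights, trend, block, libraries left out and, added later, limma voom on recovered reads. Some listed genes are not reported here.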

Additional observations from a re-analysis of the deposited data

How the results depend on the processing

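The 7 members other than Ccl8 kept their direction and their side of the threshold in every alternative. Ccl8 did so where it could be tested, but with 0 reads in syn-HSCT its direction was fixed in advance. It was below the filter in 4 alternatives, the one with a mean of at least 5 FPKM and those without an allo-HSCT library. Ranges of log2 fold change were -3.77 to -3.64 for Cxcl2, -3.63 to -3.06 for Cxcl1, -2.96 to -2.65 for Ccl9, -1.34 to -1.09 for Ccl3, -0.81 to -0.49 for Ccl4, 0.74 to 0.87 for Ccl5, 1.37 to 1.94 for Cxcl9 and 1.12 to 4.44 for Ccl8, whose value depends on the pseudocount. The largest adjusted p was 0.00424, for Ccl4. The neutrophil against T cell difference of -3.54 became -3.87 with a pseudocount of 0.1 and -4.60 without Ccl3 and Ccl4. Over all genes, 2500 were called lower, and 1604 under the filter of mean 5 FPKM, where fewer genes were tested. Scaling moved the median log2 fold change by at most 0.07. That filter on the mean left 2 instead of 4 of the other ligands called higher. In the NF-kB list, 2 instead of 1 were called higher in 7 alternatives. Counts in marker lists moved by over 1.5 times in 23 cases. Vcan, Xcr1, Siglech, Cd209a and Pdgfrb passed the filter only through 1 group. They drop out without a library of that group and under the filter of mean 5 FPKM, which lowers the counts there. The cause of the other moves was not tested.

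With the replicate number as a block, 5105 genes were called instead of 5118. The libraries share only a number: deviations of same-numbered libraries correlated at -0.02, -0.20 and 0.08, and 1 of 6 libraries correlated best with its own number. The block changed no member's call; among named genes it made 1, Cpa3, called (adjusted p = 0.0448 by limma). Depth limits Ccl8 (32 reads), Cxcl1 in allo-HSCT (98 reads) and Cxcl3 (6 reads in allo-HSCT, 62 in syn-HSCT).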
